A study of Homo sapiens with 36 samples.

Results

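Transcripts of the NRF2 antioxidant response were followed in HepG2 human hepatoma cells that had been given docosahexaenoic acid (DHA). The response was taken as 10 genes fixed by symbol: the transcription factor NFE2L2 (NRF2), its inhibitor KEAP1, and the target genes NQO1, HMOX1, GCLC, GCLM, TXNRD1, SRXN1, SLC7A11 and OSGIN1. Each symbol matched 1 of the 18932 genes in the count table, and the rule itself uses symbols and no measured value. The 10 symbols were listed with earlier results of these data known. HepG2 is a single hepatoma line, so the replicates are cultures and not donors.

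RNA-seq covered 36 libraries in 12 groups of 3. The cells received vehicle (Ctrl), 50 µM DHA, 70 µM propionate (PRO, a short-chain fatty acid of fibre fermentation), 20 µM protocatechuic acid (PCA, a phenolic acid formed from the anthocyanin cyanidin-3-glucoside), DHA + PRO or DHA + PCA, each for 6 h or 24 h. All groups were kept in serum-free medium during the incubation; DHA was given as a complex with bovine serum albumin in ethanol, PCA in acidified DMSO and PRO in water, and Ctrl cells received the albumin, ethanol and DMSO alone. The study asked what DHA does to the transcriptome and whether PRO or PCA given with it changes that effect. Each library held the pooled RNA of 3 wells of 1 of 3 independent cultures.

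NRF2 is a basic leucine zipper transcription factor that KEAP1 holds in the cytoplasm and passes to ubiquitination and degradation. Oxidants and electrophiles modify cysteines of KEAP1, NRF2 then accumulates in the nucleus, and it binds antioxidant response elements as a dimer with a small MAF protein. Because this control acts on the protein, the transcript of NFE2L2 need not move when its targets do. In liver the pathway is known for detoxification, glutathione synthesis and NADPH-dependent reduction, and oxidation products of polyunsaturated fatty acids are among the electrophiles that react with KEAP1.

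Depth was between 4659744 and 42326734 counted reads per library, with a median of 7034010. Replicate 2 of DHA + PRO at 24 h was the deepest, 6.22 times the median depth of that time without it, and the lowest count of any of the 10 genes in any library was 80. The summed level of 8 hepatoma markers (ALB, AFP, APOA1, APOB, TTR, SERPINA1, FGB and TF) was 20657 to 29185 RPKM (counts scaled to library size and to counted gene length). Immune markers (PTPRC, CD14, CD3E) summed to at most 2.08 RPKM, fibroblast markers (COL1A1, COL1A2, COL3A1) to at most 4.07 RPKM and endothelial markers (PECAM1, VWF, CDH5) to at most 0.268 RPKM in any library, and each of these 3 sums was 0 in at least 1 library. The library numbers in the labels form 2 series, of which the second holds replicate 3 of every group and replicate 2 of DHA + PRO at 6 h, so values within each series are given beside the pooled ones.

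The antioxidant response element is the sequence through which these genes are tied together, and its core is shown here for the members whose promoter windows held it. The letters TGACNNNGC were searched on both strands in the 250 bases before the RefSeq transcription starts of 8 members (GRCh38.p14), 11 windows in all. Matches stood in 4 windows of 3 genes, GCLM, TXNRD1 and KEAP1, and are printed 5′ to 3′ with 10 flanking bases and the match in capitals:
GCLM, chr1:93909446-93909474, plus strand, 34 to 26 bases before the start: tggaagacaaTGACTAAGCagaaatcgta
TXNRD1, chr12:104215670-104215698, plus strand, 99 to 91 bases before the start: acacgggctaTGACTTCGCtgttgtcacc
TXNRD1, second start, chr12:104286920-104286948, minus strand, 102 to 94 bases before the start: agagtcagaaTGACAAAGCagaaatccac
KEAP1, chr19:10502807-10502835, minus strand, 54 to 46 bases before the start: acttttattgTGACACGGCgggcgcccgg
KEAP1, chr19:10502784-10502812, plus strand, 31 to 23 bases before the start: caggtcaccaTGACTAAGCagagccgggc

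The 9 bases of the GCLM match and of the second KEAP1 match are the same, TGACTAAGC. Of all 35116 RefSeq promoter windows of this length, 3830 (10.9%) held at least 1 match, so the letters alone are common. The windows of NFE2L2, NQO1, GCLC, SRXN1 and OSGIN1 held no match within these 250 bases, which says nothing of elements farther away. HMOX1 and SLC7A11 were not searched here.

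Levels in Ctrl cells, which received vehicle, set the scale for what follows. RPKM was used to compare genes, and CPM, counts scaled to library size alone, to compare libraries. In Ctrl cells at 24 h NQO1 was the most abundant member at 198 ± 8.05 RPKM (SD, n = 3), followed by NFE2L2 at 92.0 ± 3.71 RPKM. TXNRD1 at 40.6, HMOX1 at 40.1, SRXN1 at 32.2 and KEAP1 at 30.9 RPKM came next, and each of these overlapped its neighbour in the order. GCLC stood at 20.7 RPKM, OSGIN1 at 8.46, GCLM at 4.99 and SLC7A11 at 4.58, and the last 2 overlapped. At 6 h the order began in the same way, with NQO1 at 318, NFE2L2 at 103 and TXNRD1 at 84.8 RPKM, while HMOX1 at 24.1 RPKM stood below SRXN1, GCLC and KEAP1.

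**Figure D1:**
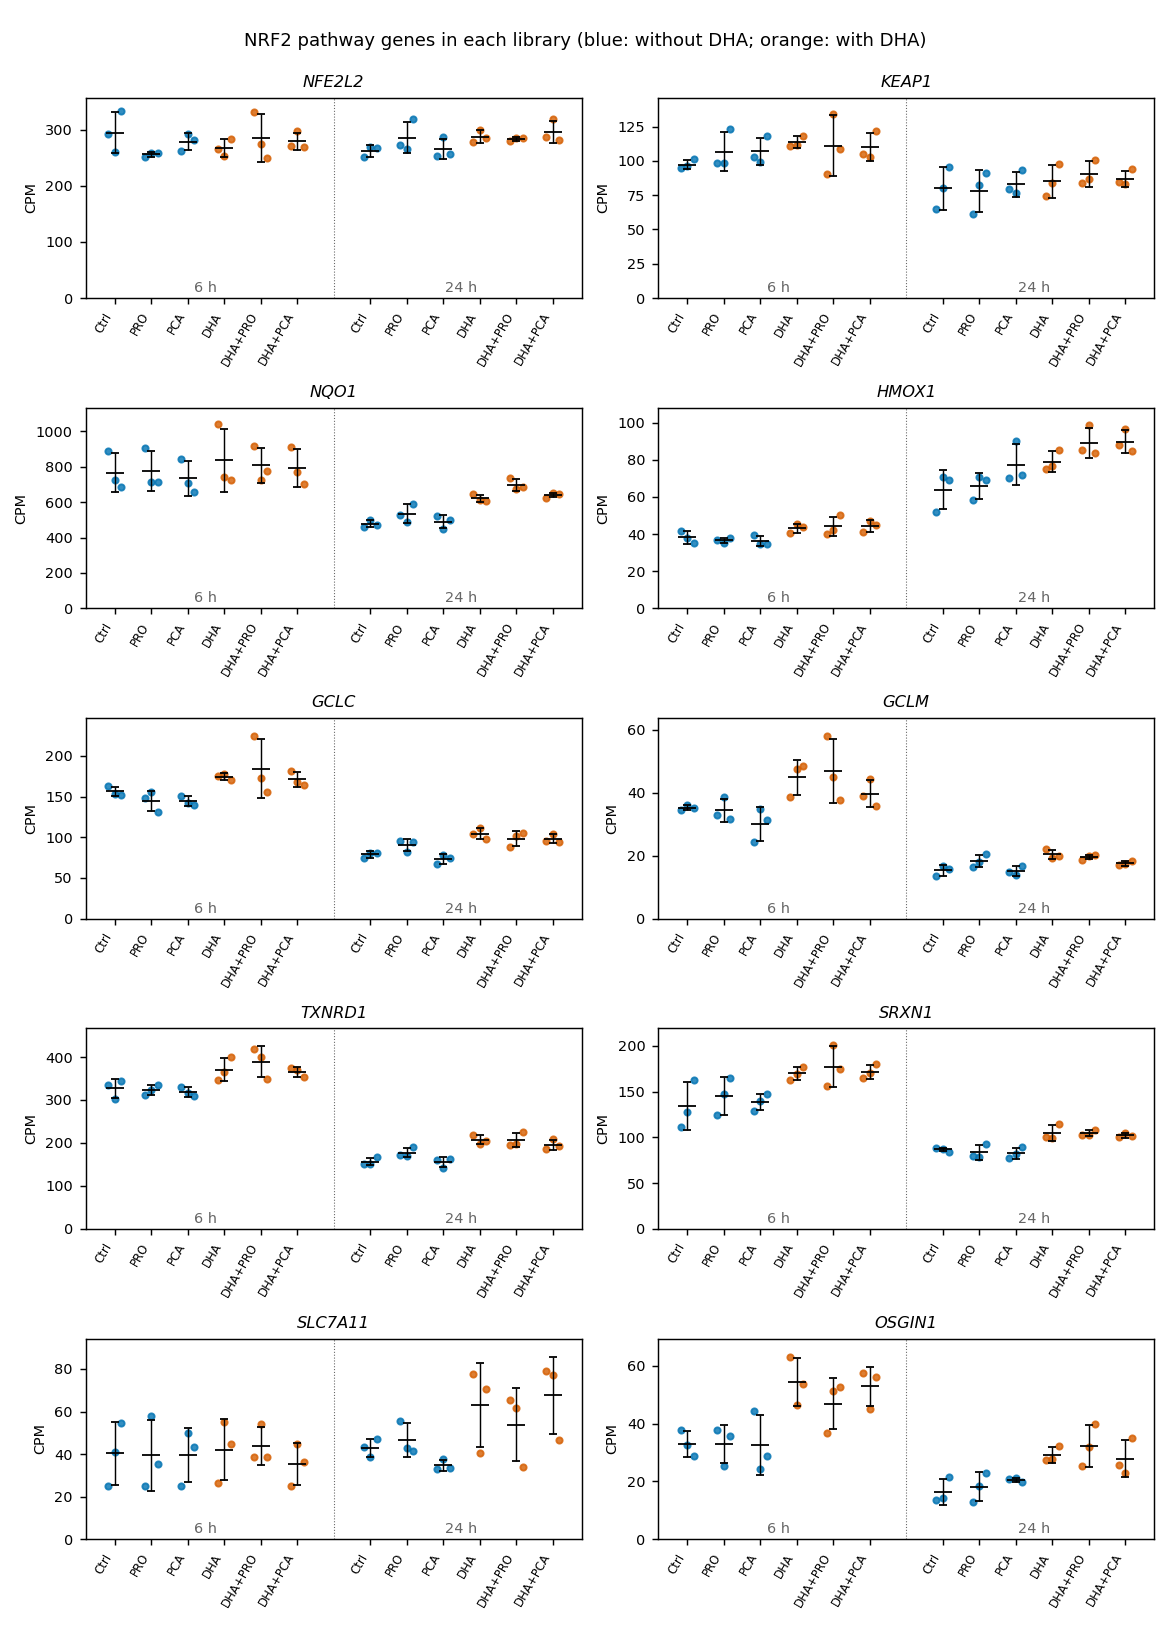
Level of each of the 10 genes (vertical axes, CPM) in the 6 treatments at 6 h and 24 h; points are single libraries and bars are group means with SD (n = 3). At 24 h the 3 groups with DHA stand above the 3 without for NQO1 (607 to 737 against 449 to 591) and SRXN1 (99.6 to 115 against 77.2 to 92.7), while KEAP1 overlaps. At that time NFE2L2 with DHA (278 to 318) stands above Ctrl (251 to 270.1) but overlaps PRO and PCA.

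Across the 9 libraries with DHA against the 9 without at 24 h, 7 of the 10 genes rose: NQO1, HMOX1, GCLC, TXNRD1, SRXN1, SLC7A11 and OSGIN1. The increases were between 1.23-fold (SRXN1) and 1.63-fold (OSGIN1), and the 10 differences were all positive with a median log2 fold change of 0.32, against 0.0070 over all genes tested. Calls here and below are an adjusted p of at most 0.05 by the quasi-likelihood test of edgeR (Benjamini-Hochberg, over all genes tested), with an average log2 CPM above 0. Of the 11893 genes tested, 1.23% were called in this comparison and 0.286% were called as higher. In bulk RNA, a change in the number of expressing cells and a change in RNA per cell cannot be told apart. The 9 against 9 comparison averages DHA against Ctrl, DHA + PRO against PRO and DHA + PCA against PCA, each counted once.

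The pooled difference was positive for all 10 members in each library series at 24 h. Its median on the log2 scale was 0.34 (range 0.13 to 0.68) in the first series, 6 libraries with DHA against 6 without, and 0.27 (range 0.017 to 0.74) in the second, 3 against 3. SLC7A11 differed most between them, at 0.68 and 0.32, while NQO1 stood at 0.42 and 0.31, OSGIN1 at 0.67 and 0.74 and SRXN1 at 0.31 and 0.29.

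**Figure D2:**
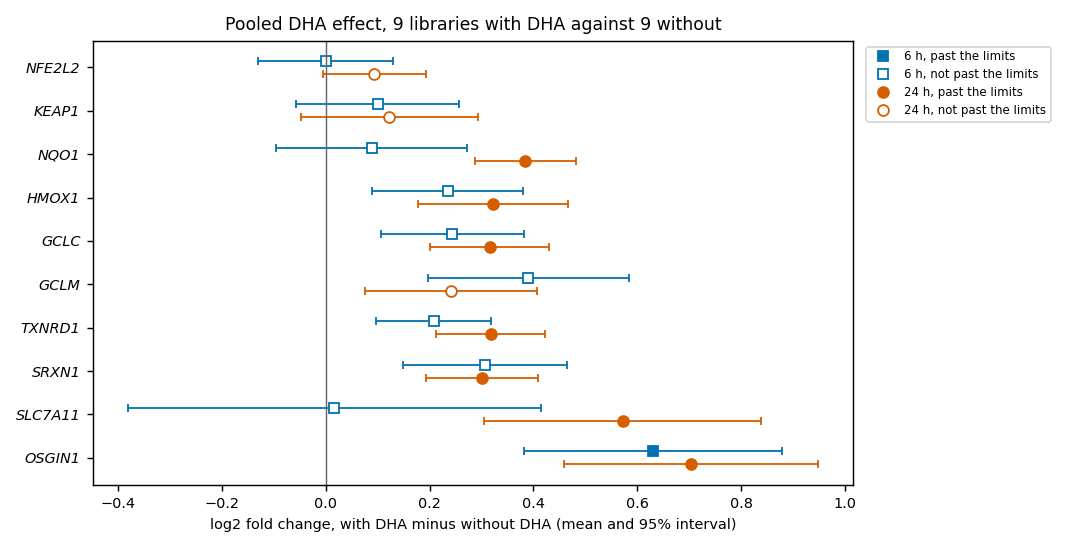
Pooled DHA difference of each gene at 6 h and 24 h (horizontal axis, log2 fold change of 9 libraries with DHA against 9 without); points are edgeR estimates, filled where called, and bars their 95% intervals. OSGIN1 lies farthest to the right at both times (0.63 and 0.70), and NQO1 and SLC7A11 sit near 0 at 6 h (0.09 and 0.02) and at 0.38 and 0.57 at 24 h.

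NFE2L2, which encodes NRF2 itself (hg19 chr2:178095031-178129859, minus strand), was at 251, 270.1 and 267 CPM in Ctrl at 24 h and at 278, 300.0 and 285 CPM with DHA. The 9 libraries without DHA ran from 251 to 319 CPM (median 267) and the 9 with DHA from 278 to 318 CPM (median 286). All 9 with DHA lay above every Ctrl library, but PRO and PCA libraries overlapped them, and replicate 3 of PRO was the highest of all 18. The pooled log2 fold change was 0.09 (SE 0.0477, adjusted p = 0.53 by edgeR), and at 6 h its 95% interval was -0.13 to 0.13. NFE2L2 shares 190 exonic bases with an antisense gene, and since the kit did not mark strand their reads cannot be told apart.

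KEAP1, the substrate adaptor through which a cullin ligase ubiquitinates NRF2 (hg19 chr19:10596796-10614054, minus strand), varied by replicate. Its 3 Ctrl libraries at 24 h were at 64.6, 79.9 and 95.6 CPM and those with DHA at 74.1, 83.7 and 97.9 CPM. The spread within each group was larger than the distance between them. Over 9 against 9 libraries the ranges were 61.3 to 95.6 CPM (median 79.9) without and 74.1 to 101 CPM (median 84.3) with DHA, a log2 fold change of 0.12 (SE 0.0825, adjusted p = 0.685 by edgeR).

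NQO1 encodes the quinone reductase that turns quinones into hydroquinones by a transfer of 2 electrons. The gene spans hg19 chr16:69743304-69760571 on the minus strand. Ctrl libraries at 24 h held 459.9, 498 and 473 CPM, and those with DHA 644, 611 and 607 CPM. With DHA + PRO they held 737, 675 and 685 CPM, and with DHA + PCA 626, 649 and 645 CPM. Each of the 9 libraries with DHA stood above each of the 9 without, whose highest was replicate 3 of PRO at 591 CPM; 0.0589% of all genes (7 genes) were separated upward in this way. The pooled log2 fold change was 0.38 (SE 0.0473, 95% interval 0.29 to 0.48), a 1.31-fold increase with an adjusted p of 1.51e-05 by edgeR. An antisense gene shares 575 of its exonic bases.

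HMOX1 encodes heme oxygenase, which opens the heme ring into biliverdin, iron and carbon monoxide (hg19 chr22:35777060-35790207, plus strand). At 24 h Ctrl libraries held 51.7, 70.5 and 69.1 CPM and libraries with DHA 75.0, 76.7 and 85.5 CPM. With DHA + PRO the values were 85.2, 98.6 and 83.7 CPM, and with DHA + PCA 87.9, 96.7 and 84.5 CPM. All 9 lay above every Ctrl library, but PCA alone reached 90.1 CPM in replicate 2, so the libraries with and without DHA overlapped. The pooled increase was 1.25-fold (log2 0.32, SE 0.0701, adjusted p = 0.0145 by edgeR). Without the deep library, replicate 2 of DHA + PRO, its log2 fold change was 0.29 with an adjusted p of 0.0543 by edgeR.

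GCLC and GCLM encode the catalytic and the modifier subunit of glutamate-cysteine ligase, the rate-limiting enzyme of glutathione synthesis. GCLC (hg19 chr6:53362140-53409927, minus strand) was at 74.2, 81.1 and 81.2 CPM in Ctrl at 24 h and at 104, 111 and 97.3 CPM with DHA. With DHA + PRO it was at 88.0, 101 and 106 CPM, and with DHA + PCA at 95.7, 104 and 94.4 CPM. Among the 9 libraries without DHA, 2 of PRO at 94.9 and 93.7 CPM reached into this range, above replicate 1 of DHA + PRO. The pooled rise was 1.24-fold (log2 0.32, SE 0.0556, adjusted p = 0.0016 by edgeR). The antisense gene GCLC-AS1 shares 305 of its exonic bases.

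GCLM (hg19 chr1:94352590-94375012, minus strand) showed a difference of the same sign that did not pass. It stood at 13.4, 16.8 and 15.8 CPM in Ctrl at 24 h, 22.045, 19.3 and 20.0 CPM with DHA, and 17.01 to 20.1 CPM in the 6 libraries of the combinations. Replicate 3 of PRO, at 20.5 CPM, lay above 8 of the 9 libraries with DHA. The pooled log2 fold change was 0.24 (SE 0.0799, 95% interval 0.08 to 0.41), with an unadjusted p of 0.006 and an adjusted p of 0.196 by edgeR. Per kilobase, GCLC exceeded GCLM in every library: the ratio of their RPKM was 2.83 to 5.02 (median 3.39) over the 18 libraries at 6 h and 3.60 to 4.88 (median 4.13) over the 18 at 24 h.

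TXNRD1 encodes the cytosolic thioredoxin reductase, a selenoprotein that reduces thioredoxin with NADPH. Counts over hg19 chr12:104609557-104744085 (plus strand) gave 152, 151 and 167 CPM in Ctrl at 24 h and 218, 197 and 205 CPM with DHA. DHA + PRO gave 196, 198 and 226 CPM and DHA + PCA gave 186, 209 and 192 CPM. Only replicate 3 of PRO, at 190.3 CPM, reached into the range with DHA, where it passed the lowest DHA + PCA library. The pooled increase was 1.25-fold (log2 0.32, SE 0.0506, adjusted p = 0.000488 by edgeR), close to that of GCLC.

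SRXN1 encodes sulfiredoxin, which restores peroxiredoxins whose active cysteine has been over-oxidized (hg19 chr20:627268-634014, minus strand). Its Ctrl libraries at 24 h lay at 88.3, 87.4 and 84.4 CPM, those with DHA at 101, 99.6 and 115 CPM. The 6 libraries of the combinations ran from 99.9 to 108 CPM. No library without DHA exceeded 92.7 CPM, so SRXN1 joined NQO1 as the second member with 9 libraries above 9 at 24 h. The pooled difference was 1.23-fold (log2 0.30, SE 0.052, adjusted p = 0.00128 by edgeR). An overlapping gene on the same strand covers 2292 of its exonic bases, and the reads of the pair cannot be told apart.

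SLC7A11 encodes the light chain of the cystine/glutamate antiporter, which brings in cystine, a source of the cysteine for glutathione (hg19 chr4:139085248-139163503, minus strand). Ctrl libraries at 24 h were at 43.1, 38.5 and 47.1 CPM and those with DHA at 77.7, 40.4 and 70.7 CPM. DHA + PRO gave 65.3, 61.9 and 34.1 CPM, and DHA + PCA gave 79.2, 77.1 and 46.8 CPM. In each group with DHA 2 libraries were high and 1 lay within the Ctrl range or below it, a different replicate in DHA than in the combinations. The pooled log2 fold change was 0.57 (SE 0.129, 95% interval 0.30 to 0.84, adjusted p = 0.0207 by edgeR), a 1.49-fold increase. This call was lost when any 1 of 7 libraries was left out (replicate 2 of Ctrl, 1 of DHA, 3 of PRO, 1 and 2 of DHA + PRO, 1 and 2 of DHA + PCA), with an adjusted p of 0.051 to 0.0654 by edgeR; SLC7A11-AS1 shares 865 of its exonic bases.

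OSGIN1, an oxidative stress induced growth inhibitor and established NRF2 target (hg19 chr16:83986827-83999937, plus strand), had the largest difference of the 10. It was at 13.6, 14.1 and 21.5 CPM in Ctrl at 24 h and at 27.3, 27.7 and 32.3 CPM with DHA. DHA + PRO gave 25.2, 31.9 and 39.8 CPM and DHA + PCA gave 25.7, 22.7 and 35.1 CPM. The ranges met at one point: the lowest library with DHA (22.7 CPM) lay just under the highest without (22.9 CPM, replicate 3 of PRO). The pooled increase was 1.63-fold (log2 0.70, SE 0.118, 95% interval 0.46 to 0.95, adjusted p = 0.000921 by edgeR).

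The treatments with DHA were also compared with Ctrl one at a time at 24 h. These 3 comparisons use the same 3 Ctrl libraries, so they are not independent of each other. DHA alone gave 0 calls among the members by edgeR, although 8 of 10 had an unadjusted p under 0.05 and all 10 differences were positive with a median log2 fold change of 0.39. Over all genes 708 of the 11893 tested had an unadjusted p under 0.05 by edgeR, and 0.193% were called. NQO1 (log2 0.38, adjusted p = 0.0513) and TXNRD1 (log2 0.40, adjusted p = 0.0588) came nearest by edgeR, and OSGIN1 had the largest value (log2 0.82, adjusted p = 0.167). DESeq2's Wald test called 4 members here, GCLC, NQO1, OSGIN1 and TXNRD1.

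DHA + PRO against Ctrl gave 3 called members, all higher, where 0.395% of all genes were called. NQO1 rose 1.46-fold (log2 0.55, SE 0.0821, adjusted p = 0.000803 by edgeR), OSGIN1 rose 1.95-fold (log2 0.97, adjusted p = 0.0272) and TXNRD1 rose 1.31-fold (log2 0.39, adjusted p = 0.0428). HMOX1 stood at a log2 fold change of 0.49 (adjusted p = 0.096 by edgeR). NQO1 was still called when any of the 6 libraries was left out. TXNRD1 lost its call without any 1 of the 6 (adjusted p 0.0678 to 0.33 by edgeR) and OSGIN1 without replicate 1 or 2 of Ctrl or replicate 2 or 3 of DHA + PRO (0.114 to 0.212).

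DHA + PCA against Ctrl gave 1 called member, NQO1 (1.34-fold, log2 0.42, SE 0.0822, adjusted p = 0.014 by edgeR), where 0.286% of all genes were called. That call was lost without replicate 1 or 3 of Ctrl or any 1 of the 3 DHA + PCA libraries (adjusted p 0.0573 to 0.111 by edgeR). OSGIN1 (log2 0.76, adjusted p = 0.214), SLC7A11 (log2 0.65, adjusted p = 0.466) and HMOX1 (log2 0.49, adjusted p = 0.109) did not pass by edgeR. In each of the 3 comparisons 8 of 10 members had all 3 treated libraries above all 3 Ctrl libraries, the exceptions being KEAP1 and SLC7A11 each time. The share among all genes was 4.63% for DHA alone, 7.28% in the comparison of DHA + PRO and 6.26% in that of DHA + PCA. An exact permutation test of 3 against 3 libraries cannot give a p under 0.1.

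**Figure D3:**
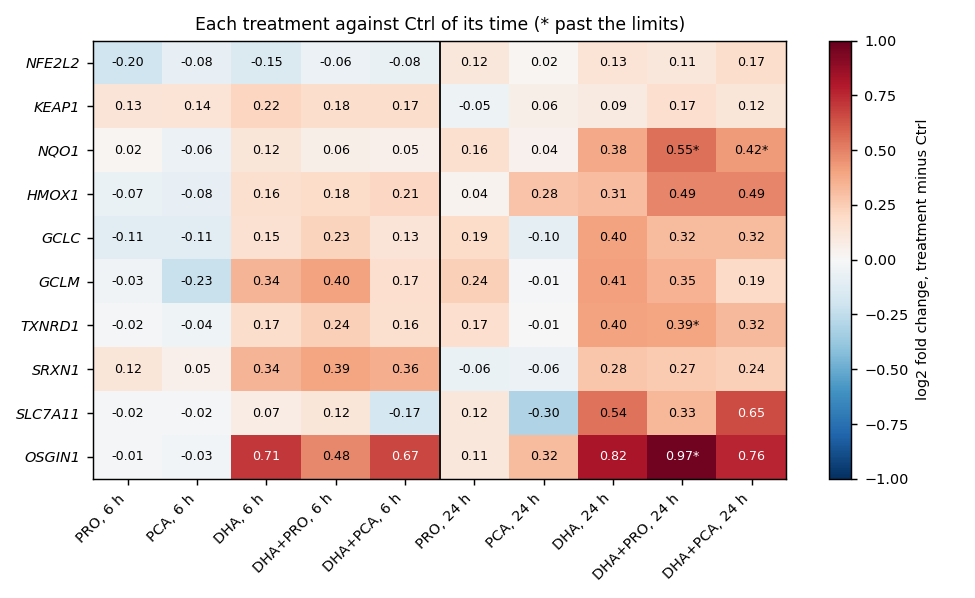
Log2 fold change of the 10 genes (rows) in each treatment against Ctrl of the same time (columns), as a colour scale with the value in each cell and a star where the edgeR call was passed. The columns with DHA at 24 h hold 10 positive values each, led by OSGIN1 (0.76 to 0.97), and the PRO and PCA columns stay between -0.30 and 0.32.

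PRO and PCA given without DHA gave no called member. At 24 h PRO gave 0 called members, 0 with an unadjusted p under 0.05 and 0 calls by DESeq2, with log2 fold changes from -0.06 to 0.24 (median 0.12). PCA at 24 h gave 0 called members and 0 by DESeq2, with values from -0.30 for SLC7A11 to 0.32 for OSGIN1. Its 1 member at an unadjusted p under 0.05 was HMOX1, at a log2 fold change of 0.28 and an unadjusted edgeR p of 0.031. Of the 11893 genes tested, 454 were under that limit with PCA at 24 h. At 6 h PRO lay between -0.20 and 0.13 and PCA between -0.23 and 0.14, each with 0 calls by edgeR and DESeq2 and 0 unadjusted p under 0.05. In all 4 comparisons 0% of all genes were called, the same share as among the members.

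Adding PRO or PCA to DHA was tested directly, as the combination against DHA alone. At 24 h DHA + PRO against DHA gave 0 called members, 0 at an unadjusted p under 0.05 and 0 by DESeq2, in a comparison where 0% of all genes were called. NQO1 came nearest, 0.17 higher on the log2 scale with PRO (95% interval -0.0012 to 0.34, unadjusted p = 0.052 by edgeR). The 95% intervals were -0.19 to 0.17 for TXNRD1, -0.07 to 0.42 for HMOX1, -0.25 to 0.55 for OSGIN1 and -0.66 to 0.24 for SLC7A11.

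DHA + PCA against DHA at 24 h likewise gave 0 called members, 0 at an unadjusted p under 0.05 and 0 by DESeq2, with 0% of all genes called. NQO1 differed by 0.04 on the log2 scale (95% interval -0.13 to 0.21) and GCLM by -0.22 (95% interval -0.50 to 0.07). At 6 h both combinations against DHA gave 0 called members by edgeR, 0 at an unadjusted p under 0.05 and 0 by DESeq2, and 0% of all genes. A missing call does not show that the combinations act like DHA alone.

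At 6 h OSGIN1 was the 1 member called in the pooled comparison of 9 libraries with DHA against 9 without. It ran from 24.4 to 44.4 CPM (median 32.6) without and from 36.9 to 63.0 CPM (median 52.7) with DHA, so the ranges overlapped. The fold change was 1.55 (log2 0.63, SE 0.119, 95% interval 0.38 to 0.88, adjusted p = 0.0266 by edgeR). Of 11872 genes 0.202% were called and 0.0505% were called as higher. The call was lost without any 1 of 11 of the 18 libraries, with an adjusted p of 0.0578 to 0.0697 by edgeR: replicates 2 and 3 of Ctrl, 1 and 3 of DHA, 2 of PRO, 2 and 3 of PCA, 2 and 3 of DHA + PRO, and 1 and 3 of DHA + PCA.

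Several other members leaned the same way at 6 h without passing. TXNRD1 was the 1 member whose 9 libraries with DHA (346 to 419 CPM, median 369) all exceeded the 9 without (303 to 344 CPM, median 323), where 0.0253% of all genes (3 genes) did so, yet its log2 fold change of 0.21 had an adjusted p of 0.236 by edgeR. GCLM (log2 0.39, adjusted p = 0.143), SRXN1 (log2 0.31, adjusted p = 0.192), GCLC (log2 0.24, adjusted p = 0.332) and HMOX1 (log2 0.23, adjusted p = 0.565) also missed the limit by edgeR. DESeq2's Wald test added GCLM, SRXN1 and TXNRD1 to OSGIN1. NQO1 was at 0.09 (95% interval -0.10 to 0.27) and SLC7A11 at 0.02 (95% interval -0.38 to 0.41). Paired by replicate number with the library lacking DHA, NQO1 was higher with DHA in 9 of 9 pairs (log2 0.018 to 0.22). So were GCLC, GCLM, TXNRD1 and SRXN1. HMOX1 and OSGIN1 were higher in 8 of 9 pairs, KEAP1 in 7, and NFE2L2 and SLC7A11 in 4 each. Equal numbers are not stated to mark the same culture, and the share over all genes was not counted.

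For NQO1 and SLC7A11 libraries of 1 group lay far apart at 6 h. Replicate 1 was the highest NQO1 library in 6 of 6 groups and the lowest SLC7A11 library in 6 of 6. Within the library series, 10 of 10 members were higher with DHA in the first (median log2 difference 0.21) and 8 of 10 in the second (median 0.20). Against Ctrl alone at 6 h, DHA, DHA + PRO and DHA + PCA gave 0 called members each by edgeR and by DESeq2, where 0.0168% of all genes were called in each. Members at an unadjusted p under 0.05 by edgeR were OSGIN1, SRXN1 and GCLM with DHA, SRXN1, TXNRD1, GCLM and OSGIN1 with DHA + PRO, and OSGIN1 and SRXN1 with DHA + PCA. Of the 11872 genes tested, 337, 264 and 374 were under that limit in the same order. OSGIN1 was at a log2 fold change of 0.71, 0.48 and 0.67 in these 3 treatments and SRXN1 at 0.34, 0.39 and 0.36.

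Without DHA, the level of most members was lower at 24 h than at 6 h. In a joint fit of the 36 libraries, comparing the 9 without DHA at 24 h with the 9 at 6 h, 7 members fell (KEAP1, NQO1, GCLC, GCLM, TXNRD1, SRXN1 and OSGIN1) and HMOX1 rose. GCLM fell by 1.03 on the log2 scale, TXNRD1 fell by 0.99, GCLC fell by 0.88, OSGIN1 fell by 0.85, SRXN1 fell by 0.72, NQO1 fell by 0.60 and KEAP1 fell by 0.36, with adjusted p from 3.04e-17 (TXNRD1) to 0.000508 (KEAP1) by edgeR. HMOX1 went the other way, from 34.6 to 41.7 CPM at 6 h to 51.7 to 90.1 CPM at 24 h, a 1.86-fold rise (log2 0.89, adjusted p = 1.53e-12 by edgeR). NFE2L2 (log2 -0.03, adjusted p = 0.731) and SLC7A11 (log2 0.06, adjusted p = 0.816) did not pass. Time moved much of the table, with 48.4% of 12046 genes called and 24.1% called as lower, and the members' median of -0.66 stands against -0.0073 over all genes. Hours of treatment, hours without serum and time since seeding run together here and cannot be told apart.

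For 7 members (NQO1, HMOX1, GCLC, GCLM, TXNRD1, SRXN1 and OSGIN1) the 9 libraries without DHA at one time did not overlap the 9 at the other, against 11.3% of all genes. In 3 of them the highest 24 h library with DHA stayed below the lowest 6 h library without it, GCLC (111 against 131 CPM), GCLM (22.045 against 24.3 CPM) and TXNRD1 (226 against 303 CPM). For NQO1, SRXN1 and OSGIN1 those ranges met. The pooled DHA effect at 24 h minus that at 6 h gave 0 called members by edgeR and 0 by DESeq2, with 0% of all genes called. By edgeR 2 members had an unadjusted p under 0.05, as did 368 of the 12046 genes tested. The difference was 0.29 on the log2 scale for NQO1 (SE 0.103, unadjusted p of 0.0087) and 0.55 for SLC7A11 (SE 0.249, unadjusted p of 0.034).

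**Figure D4:**
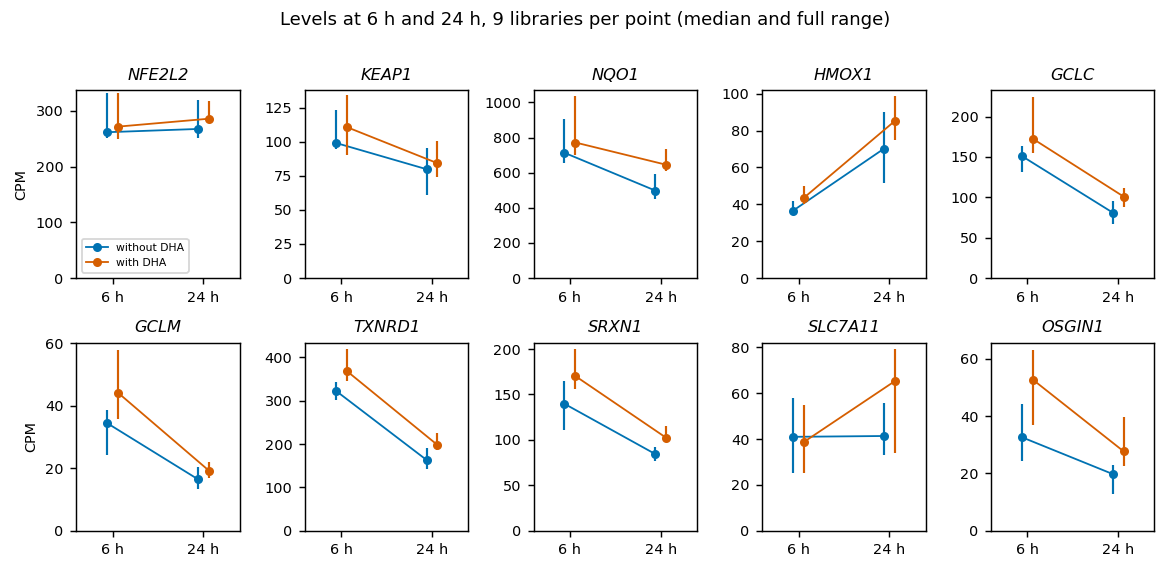
Level of each gene (vertical axes, CPM) at 6 h and 24 h in the 9 libraries without and the 9 with DHA; points are medians, bars the full range over the 9 libraries, and lines join the medians. The lines fall for GCLC, GCLM and TXNRD1 and rise for HMOX1, and at 24 h the line with DHA is the upper one for each gene.

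Other genes of the pathway were read from lists fixed by name. In the pooled comparison at 24 h, 1.23% of all genes were called and 0.286% were called as higher. Of 12 tested partners and regulators of NRF2 (small MAF proteins, ligase subunits and the like), 1 rose in the pooled comparison at 24 h: SQSTM1, the autophagy receptor p62 that binds KEAP1 (log2 0.33, SE 0.0683, adjusted p = 0.00839 by edgeR), and the list's median was 0.026. Of 25 tested further NRF2 targets 3 rose. These were GPX2, a glutathione peroxidase (log2 0.40, adjusted p = 0.00012), UGDH, which makes UDP-glucuronate (log2 0.33, adjusted p = 0.00909), and ABCC3, an exporter of glucuronides (log2 0.30, adjusted p = 0.0334 by edgeR), while 22 of the 25 were positive with a median of 0.15. Of 12 other genes of glutathione and thioredoxin chemistry 0 were called by edgeR, and 8 were positive with a median of 0.045. ATF4 is the amino acid response factor that also drives SLC7A11. Of its 12 tested targets 0 were called by edgeR, but 11 were positive with a median of 0.22, above that of the further NRF2 targets. The median over all genes was 0.0070, and the share of positive differences over all genes was not counted. Fibroblast markers (3 tested, median 0.63) and immune markers (1 tested, 0.56) also gave 0 calls by edgeR at the low levels given above, and their part in the result was not tested. Of 8 hepatoma markers, 1 was called as lower by edgeR, and their median was -0.044. ASNS, asparagine synthetase, was at a log2 fold change of 0.55 (SE 0.158, adjusted p = 0.0989 by edgeR).

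The aldo-keto reductases, NADPH-dependent enzymes that reduce aldehydes and ketones, moved the most. At 24 h, where 0.286% of all genes were called as higher, 5 of 6 rose: AKR1B15 (log2 1.10), AKR1B10 (log2 0.87), AKR1C2 (log2 0.79), AKR1C1 (log2 0.68) and AKR1C3 (log2 0.38). AKR1B1, at 0.11, was not called. AKR1B10 went from 51.4 ± 10.9 CPM (SD, n = 9 libraries of 3 cultures) without DHA to 94.0 ± 9.35 CPM with it. AKR1B10 and AKR1B15 are close in sequence, as are AKR1C1, AKR1C2 and AKR1C3, so the split of reads among them is uncertain. Together the 10 members and these lists held 16 of the 34 genes that rose in the pooled comparison. At 6 h 3 reductases rose, AKR1B10 (log2 0.34, adjusted p = 0.0363), AKR1C1 (log2 0.34, adjusted p = 0.024) and AKR1C2 (log2 0.33, adjusted p = 0.0107 by edgeR). With OSGIN1 they made 4 of the 6 genes that rose, which were 0.0505% of all genes tested. The members and lists were chosen with earlier results of these data known, so the 16 of 34 and the 4 of 6 are descriptions and not tests.

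**Figure D5:**
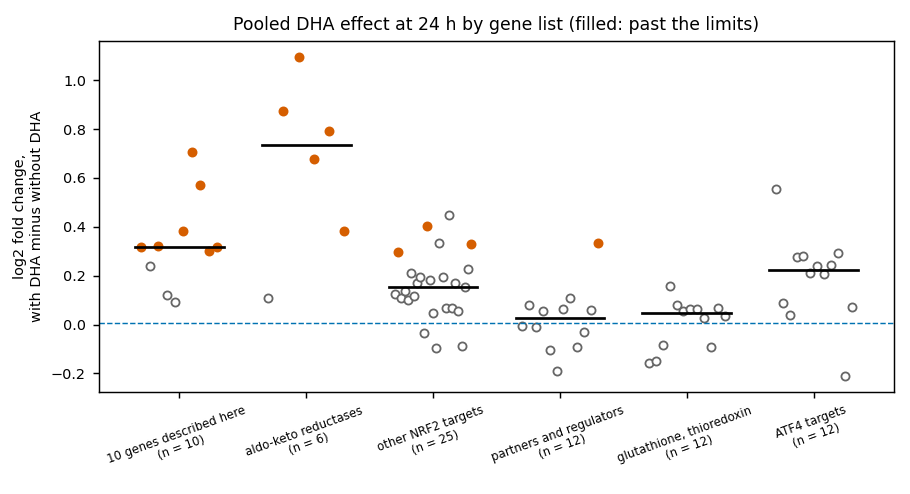
Pooled DHA difference at 24 h (vertical axis, log2 fold change) of every tested gene among the 10 members, the aldo-keto reductases, the further NRF2 targets, the partners and regulators, the glutathione and thioredoxin genes and the ATF4 targets; filled points passed the edgeR call, horizontal bars are list medians and the dashed line is the median of all genes. The aldo-keto reductases (median 0.73) and the members (median 0.32) stand highest of these 6 groups, and glutathione and thioredoxin genes (median 0.045) lie around the dashed line.

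As a check that DHA acted, genes of sterol and fatty acid synthesis that polyunsaturated fatty acids are known to lower were read in the pooled comparison at 24 h, and HMGCS1 (log2 -0.72), SCD (log2 -0.70), FASN (log2 -0.66) and SQLE (log2 -0.36) fell. In single treatments against Ctrl at 24 h, genes called in the further lists were AKR1B10 and AKR1B15 with DHA, GPX2 and all 5 of the reductases named above with DHA + PRO, and GPX2, AKR1B10 and AKR1B15 with DHA + PCA. GPX2 was at a log2 fold change of 0.64 (adjusted p = 0.00136) with DHA + PRO and of 0.55 (adjusted p = 0.00808 by edgeR) with DHA + PCA.

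Over time without DHA, where 48.4% of all genes were called and 24.1% were called as lower, the lists gave the following counts. All 6 reductases fell, AKR1C2 by the most (log2 -2.29), and 15 of 25 further targets fell against 3 that rose, UGDH (log2 -1.23), PTGR1 (log2 -0.93) and GSR (log2 -0.76) by the most. Among 12 ATF4 targets 7 rose and 1 fell, led by ATF3 (log2 0.87), STC2 (log2 0.73) and TRIB3 (log2 0.61). Partners and regulators, with 7 of 12 called, had 2 that rose and 5 that fell, MAFF (log2 1.16), SQSTM1 (log2 -0.41) and GSK3B (log2 -0.31) by the most. Glutathione and thioredoxin genes had 3 of each, with GPX1 (log2 -0.67), PRDX5 (log2 0.41) and GLRX (log2 0.40) the largest, and 6 of 12 called is close to the share over all genes.

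Likeness between genes was described by Pearson's r of log2 CPM over the 36 libraries, each centred on the mean of the 6 libraries with the same time and replicate number. The libraries share treatments and times, so these values are descriptions. Among the members, 43 of 45 pairs were positive (median 0.55, range -0.17 to 0.88), and GCLC with TXNRD1 was the closest at 0.88. The centring left the differences between treatments in, so genes that rise together with DHA correlate. The share of positive pairs over all genes was not counted. The 3 genes nearest to NQO1 in the whole table were GPX2 (0.92), AKR1B10 (0.92) and SPP1 (0.90), and those nearest to OSGIN1 were ABCB6 (0.91), SQSTM1 (0.89) and CREB3L3 (0.86). SLC7A11 was nearest to PSAT1 (0.84), MTHFD2 (0.83) and ASNS (0.74), genes of serine, folate and asparagine metabolism. None of these 3 is a member, and PSAT1 and ASNS were on the list of ATF4 targets.

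Among the nearest genes of the remaining targets were other members and reductases. GCLC was nearest to TXNRD1 (0.88), AKR1C4 (0.83) and UGDH (0.83), TXNRD1 to GCLC (0.88), AKR1B10 (0.85) and AKR1B15 (0.84), GCLM to GCLC (0.81), TXNRD1 (0.79) and RHOBTB1 (0.70), SRXN1 to AKR1B10 (0.80), TXNRD1 (0.79) and SLC1A4 (0.78), and HMOX1 to CREB3L3 (0.82), OSGIN1 (0.81) and AKR1B10 (0.76). Without centring r turned negative for HMOX1 with OSGIN1 (-0.42) and AKR1B10 (-0.57) and for SRXN1 with SLC1A4 (-0.38), and was 0.29 for NQO1 with SPP1 and 0.30 for OSGIN1 with CREB3L3. The factor and its inhibitor had other neighbours: CKAP2 and VTA1 (0.77 each) among those for NFE2L2, and TUBGCP2 (0.82), VARS (0.80) and WDR18 (0.80) for KEAP1.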

How the data were processed

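The deposited file holds RNA-seq of HepG2 cells in 36 libraries, 3 for each of 6 treatments at 6 h and 24 h. The authors pooled the RNA of 3 wells for each library, prepared libraries with the TruSeq RNA kit v2, which does not mark strand, aligned reads to hg19 with STAR and counted them per RefSeq gene with iRNA-seq. The deposited values are raw counts for 18932 genes, not normalized. Positions and counted gene lengths (bp, an "other" unit) stand in the deposited table too; lengths entered RPKM alone, and printed starts were shifted by 1 to count from 1. All per-sample columns were used.

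Groups came from the sample labels. Genes were kept by filterByExpr, library sizes were TMM-scaled, and the quasi-likelihood F test of edgeR 4.0.16 (R 4.3.3) was run on the 18 libraries of each time and on all 36 for comparisons of times. Benjamini-Hochberg adjustment ran over every gene in the test, and a call needed an adjusted p of at most 0.05 with an average log2 CPM above 0. The one-way ANOVA the study names states neither unit nor covariate and was replaced by this count test. CPM were computed on TMM-scaled library sizes, and the standard error is the log2 fold change divided by the square root of F. Alternatives were DESeq2 1.42.0, its size factors, no filter on low counts, the deepest library thinned, the replicate number or the library series as a term, and each library left out in turn. On simulated counts for DHA against Ctrl at 24 h (11889 genes), 93% of changes of 1 and 43% of changes of 0.5 on the log2 scale were found.

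Depth was 4659744 to 42326734 counts per library. Chi-square per degree of freedom was at least 2.21 in the 36 pairs of replicates, so no library was a duplicate of another in its group. Pairs across groups were not checked. Molecular identifiers are not described, so counts reflect reads. P-values rest on the spread of each gene within groups, estimated from the 18 libraries of a time or all 36. The 9 libraries on a pooled side came from 3 cultures of 1 line, and the main test had no term for culture. The 10 members and the further lists were chosen with earlier results of these data known. All 10 members were named. Calls among cell type markers and the DHA check genes were not all named. Of the other further lists, each gene called between treatments was named. Between times, the 3 called genes of each list with the largest change were named, and of the reductases the largest alone. Some genes are not reported here. Promoter sequences are RefSeq's (GRCh38.p14), and exon overlaps come from the GENCODE annotation of hg19.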

Additional observations from a re-analysis of the deposited data

Results flagged for a closer look

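For 2 of 50 pairs of member and treatment, each library at 24 h moved one way against the Ctrl library of the same number and each library at 6 h the other way. The share of such pairs over all genes was not counted, so 2 of 50 is no result about the members. Equal numbers are not stated to mark the same culture. NFE2L2 with DHA was 0.131 higher on the log2 scale at 24 h on average (0.0907 to 0.152) and at -0.134 at 6 h (-0.227 to -0.0356), a difference of 0.266. HMOX1 with PCA was 0.283 higher at 24 h (0.0602 to 0.437) and at -0.0786 at 6 h (-0.134 to -0.0177), a difference of 0.362. Neither difference was tested, and neither gene was called in either comparison at either time by edgeR, where HMOX1 with PCA at 24 h had an unadjusted p of 0.031.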

How the results depend on the processing

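No called member changed sign under any alternative. With DHA against Ctrl at 24 h the 0 called members became 3 without the filter on low counts, 4 by DESeq2's Wald test, 3 with the library series as a term and 4 with the replicate block. DHA + PRO (3 called) gave 4, 4, 3 and 4 under these settings, and DHA + PCA (1 called) gave 4, 2, 2 and 4. In the pooled comparison at 24 h 7 members were called under all 6 settings, these 4 and also DESeq2 size factors and the deepest library thinned, and at 6 h (1 called) DESeq2's Wald test gave 4, the library series 4 and the replicate block 5. The replicate block also called 1 member, NQO1, for the pooled effect at 24 h minus that at 6 h, and 8 members between times without DHA, as without it. For the pooled comparison at 24 h it called 10 further NRF2 targets as higher in place of 3, and 5 ATF4 targets as higher and 1 as lower in place of 0. With any 1 library left out, called members ranged from 0 to 0 for DHA, 1 to 2 for DHA + PRO, 0 to 1 for DHA + PCA, 5 to 7 for the pooled comparison at 24 h, 0 to 1 at 6 h and 8 to 8 between times. Over all genes, the 146 calls of the pooled comparison at 24 h became 222 by DESeq2 and 367 with the block, and the 24 at 6 h became 44 and 64. In the single treatments at 24 h, the 23 calls of DHA, 47 of DHA + PRO and 34 of DHA + PCA became 49, 79 and 74 without the filter, 46, 68 and 63 by DESeq2, 34, 66 and 53 with the library series and 77, 135 and 130 with the block. The cause of these changes was not tested. Nothing states that equal replicate numbers mark the same culture, though the column headers number the pooled wells in the same order in every group. Correlations of same-numbered libraries passed 0.1 in 37 of 45 pairs at 6 h and 34 of 45 at 24 h. Of 18 libraries per time, 16 and 17 correlated best with their own number, a hint and not a statement of the design. Counting error limits members such as GCLM, at 80 or more reads per library, more than NQO1.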
